A study of Mus musculus with 2 samples.

Results

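AA467197, also called Nmes1, and its paralog Ndufa4 were followed in CD8+ T cells that had infiltrated B16 F0 tumors, a transplanted mouse melanoma. Both genes were matched by symbol to the feature table, so the members are 2 of 32285 genes. They were proposed with their obese over lean values of these cells already known, and those values are therefore given as descriptions with no test. One single-cell library came from lean mice on normal chow (NC) and 1 from obese mice on western diet (WD), all male and 16 weeks old by the labels. The mice had been on the diet for 12 weeks and the tumors were taken on day 14; how many mice were pooled in a library is not stated in the sources used here. Cells were enriched and then sorted on CD8, and no genetic change was described for these mice.

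NDUFA4 is a subunit of cytochrome c oxidase, complex IV of the respiratory chain, although its name was given for complex I. The product of AA467197, known in human as C15orf48 or MOCCI, is a small related protein that is induced in inflamed tissue and in activated macrophages and can take the place of NDUFA4 in complex IV. A 3rd family member, Ndufa4l2, is known from hypoxic cells. The transcript of AA467197 also hosts the microRNA gene Mir147. The questions put to the data were which cells held each transcript, whether the transcripts excluded each other in single cells of equal depth, which genes went with AA467197, and how the lean and obese libraries differed.

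The paper states limits on mitochondrial share and depth, yet it reports analysing as many cells as were deposited. The set used here is smaller, because those limits were applied to the deposited cells. In all, 4745 of 5320 deposited cells lay within the limits. They held 27815785 unique molecular identifiers (UMIs, 1 for each captured RNA molecule) in 2456 cells of the lean library and 28705830 UMIs in 2289 cells of the obese library, with a median of 7958 and 9103 UMIs per cell. Only 2 cell barcodes occurred in both libraries. Levels are counts per 1000000 UMIs of the same cells (CPM). With 1 library for each diet there were no replicates, so no p-value is given and every 95% interval covers counting error only.

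In the GENCODE annotation of GRCm38, AA467197 (ENSMUSG00000033213) lies on the plus strand at chr2:122636986-122641191. Ndufa4 (ENSMUSG00000029632) lies on the minus strand at chr6:11900292-11907497. Their coding regions are of nearly equal size, 249 and 246 bases. The longest run of bases common to a transcript of each gene is 11, and no stretch of 50 bases of either occurs in the transcripts of another gene other than Mir147. Mir147 sits at chr2:122640803-122640881, within the last exon and 3′ UTR of AA467197, and is not among the features counted. A 3′ library of polyadenylated RNA does not measure the mature microRNA.

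The promoters of both genes are shown because the transcripts differed in the cells that held them, as described below. Each window runs from 250 bases before to 50 bases after the RefSeq start on GRCm38.p6, chr2:122637637-122637936 on the plus strand for AA467197 and chr6:11907401-11907700 on the minus strand for Ndufa4. Capitals mark TGANTCA, the AP-1 motif, and TATAA, and these motifs were picked after the sequence was seen.
AA467197: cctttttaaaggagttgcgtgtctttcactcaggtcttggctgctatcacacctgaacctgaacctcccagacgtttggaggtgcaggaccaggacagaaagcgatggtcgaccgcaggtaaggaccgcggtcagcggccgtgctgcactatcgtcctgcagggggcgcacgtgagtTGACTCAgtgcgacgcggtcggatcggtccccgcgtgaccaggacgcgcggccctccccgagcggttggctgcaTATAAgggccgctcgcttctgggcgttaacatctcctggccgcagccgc
Ndufa4: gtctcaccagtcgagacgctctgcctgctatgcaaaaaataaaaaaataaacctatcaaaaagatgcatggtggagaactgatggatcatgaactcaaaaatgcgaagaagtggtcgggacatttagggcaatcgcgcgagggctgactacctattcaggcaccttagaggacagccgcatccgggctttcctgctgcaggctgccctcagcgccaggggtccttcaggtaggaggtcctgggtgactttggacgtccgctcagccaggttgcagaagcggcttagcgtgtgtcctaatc
The AP-1 letters of AA467197 began 73 bases before the RefSeq start, and its TATAA letters began 1 base downstream of that start. The GENCODE transcript AA467197-202 starts farther downstream, and the AP-1 and TATAA letters began 101 and 27 bases before its start. AA467197-204 shares that start. AA467197-201 and AA467197-203 start upstream of the TATAA letters, at chr2:122637850 and chr2:122636986, and which start was used in these cells was not tested. Searched on both strands, TGANTCA occurs in 7.81% and TATAA in 24.9% of 32851 promoters of this length. CACGTG, an E-box, overlaps neither of them in AA467197, begins 82 bases before the RefSeq start and occurs in 7.15% of promoters. GGGCGG, held by 35.7%, and the NF-kB motif, held by 20.7%, were not in the AA467197 window, and none of the 5 was in that of Ndufa4. A match is a description of letters and not a site shown to be bound.

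The cells were clustered on 2000 variable genes from which AA467197, Ndufa4, Ndufa4l2 and the listed genes of complexes I and IV had been left out. This gave 6 clusters. Their numbers were not matched to those of the paper, which also describes 6 and reports a cytolytic effector profile for its clusters 1 and 3. Cluster 0 was led by Ifit3b, Ifit3, Gzma, Ifit1 and Slfn5 (interferon-stimulated-like), cluster 1 by Pclaf, Birc5, Nusap1, Rrm2 and Hist1h2ae (proliferating-like), and cluster 2 had Tmem108, Klra7, Nsg2 and Pde2a among its leading genes, with Lef1 and Tcf7 close behind (naive- or memory-like). Cluster 3 was led by Gzmd, Gzme, Penk, Cd81 and Gzmf (effector-like). These names follow the leading genes only. The summed level of the 18 listed effector genes, which include Gzma and Ccl5, was no lower in cluster 0. It was 19290 CPM in cluster 0 and 19229 CPM in cluster 3 of the lean library, and 18905 and 12262 CPM in the obese library. Cluster 4 was shallow, with a median of 2304 UMIs, and was led by hemoglobin genes and Gm26917, and cluster 5 held 32 cells led by Ly6d, Siglech, Ctsh, Cox6a2 and Rnase6; neither was named. Cluster 3 made up 25.2% of the lean and 13.6% of the obese library, and cluster 0 made up 19.0% and 31.1%.

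Among the 4 named clusters, AA467197 was highest in the effector-like and proliferating-like cells. In the lean library its level was 216 CPM in cluster 3 (95% interval 206 to 226) and 145 CPM in cluster 1 (139 to 153), against 22.0 CPM in cluster 0 and 1.77 CPM in cluster 2, where 8 UMIs were counted in 577 cells. The obese library had the same order among these clusters, at lower levels in 3 of the 4, with 88.7 CPM in cluster 3 (80.4 to 97.5), 32.4 CPM in cluster 1 (29.5 to 35.5), 4.45 CPM in cluster 0 and 3.68 CPM in cluster 2. The last 2 of these have intervals that overlap, 2.82 to 6.68 CPM and 1.96 to 6.30 CPM. The unnamed clusters were not without it. Cluster 5 had 321 CPM in 10 lean cells, where 46 of the 50 UMIs came from 1 cell, and 72.0 CPM in 22 obese cells, and the shallow cluster 4 had 76.3 and 17.3 CPM. Clusters 1 and 3 held 45.7% and 49.3% of all AA467197 UMIs of the lean library and 47.8% and 44.4% of those of the obese library. Although it took no part in the clustering, AA467197 was 8th among the genes of cluster 3 ordered by fold over the other cells, a place that follows from the genes used to form the cluster and is not a test.

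Ndufa4 was present in 476 of 477 lean and 577 of 578 obese cells of cluster 1, the deepest cluster. Its highest level was also there, with 623 CPM in the lean (609 to 638) and 736 CPM in the obese library (722 to 750). Among the named clusters of the lean library its lowest level, 396 CPM (382 to 409), was in cluster 3, where AA467197 was highest. In the obese library cluster 3 had 583 CPM (561 to 605), above cluster 0 at 504 CPM (484 to 523) and cluster 2 at 365 CPM (346 to 386). The shallow cluster 4 had 79.8 and 137 CPM.

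Ndufa4l2 had 0 UMIs in both libraries. A count of 0 in 2456 and 2289 cells allows a share of cells with a UMI of up to 0.122% and 0.131%, and a level of up to 0.108 and 0.105 CPM, with 3 counts taken as the limit.

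**Figure D1:**
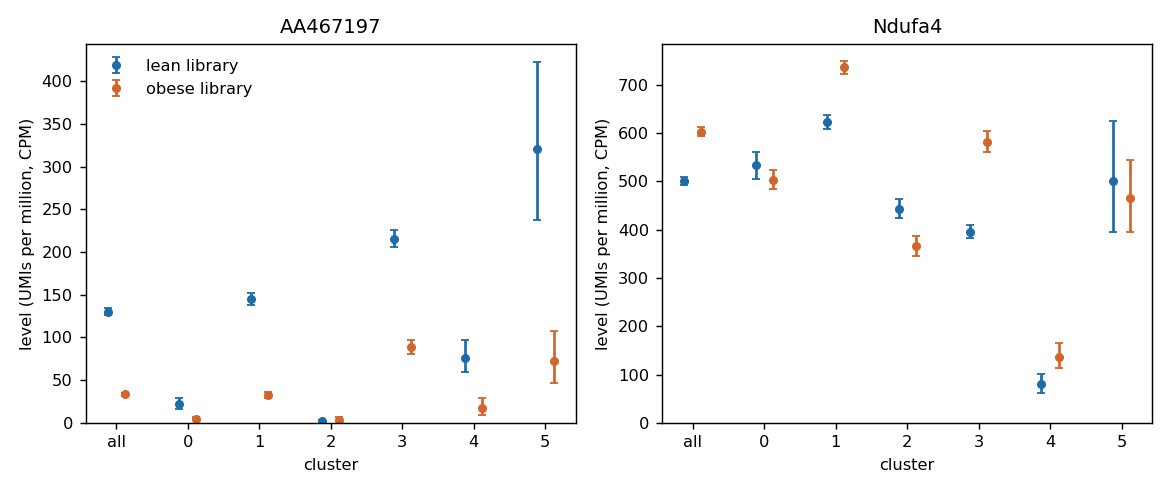
Level of AA467197 (left) and Ndufa4 (right) in CPM over all cells and in each cluster, in the lean (blue) and obese (orange) library; points are sums over cells and bars are exact Poisson 95% intervals. AA467197 stands at 216 and 145 CPM in clusters 3 and 1 of the lean library and near 0 in cluster 2, and at 321 CPM in the 10 lean cells of cluster 5, while the 2 libraries lie in opposite orders for Ndufa4 in clusters 2 and 3.

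In the lean library 739 of 2456 cells (30.1%) held an AA467197 UMI, and in the obese library 315 of 2289 (13.8%). The shares were 60.2% and 30.4% in cluster 3 and 60.4% and 29.9% in cluster 1. Levels were uneven among the cells that held it. The median such cell had 3 UMIs in the lean and 2 UMIs in the obese library, while the highest had 46 and 74, and 95 lean and 19 obese cells had 10 or more. The 10 highest cells held 8.64% of the lean and 23.9% of the obese UMIs, and in obese cluster 3 the 10 highest cells held 48.8% of them. Of the lean cells, those with AA467197 were deeper, with a median of 15871 UMIs against 6759 UMIs in those without.

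To set depth aside, each cell was drawn down to 2000 UMIs. AA467197 was then seen in 278 of 2330 lean cells (11.9%, 10.6 to 13.3) and in 78 of 2177 obese cells (3.58%, 2.84 to 4.45). Ndufa4 was seen in 55.3% (53.3 to 57.4) and 60.9% (58.8 to 63.0). Free RNA was not measured. In the naive- or memory-like cluster 2, AA467197 was seen in 1 of 577 lean cells (0.173%) and 3 of 424 obese cells (0.708%). Median depths before thinning were 7449 and 7859 UMIs there, and at full depth 1 obese cell held 6 of the 13 UMIs. The shares in cluster 3, 24.4% of lean cells (21.1 to 28.0) and 8.01% of obese cells (5.25 to 11.6), lay above those of cluster 2. Depths before thinning were 11170 and 13823 UMIs in cluster 3.

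AA467197 and Ndufa4 were not exclusive in single cells. At full depth 672 of the 739 lean cells and 310 of the 315 obese cells with AA467197 also held Ndufa4. The balance between the transcripts differed between the libraries. In cluster 3, AA467197 made up 35.3% of the UMIs of both genes in the lean and 13.2% in the obese library, and it outnumbered Ndufa4 in 175 of 618 lean cells (28.3%) and 14 of 312 obese cells (4.49%).

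The cells with the most AA467197, picked for that count, differed widely in Ndufa4. The 10 highest lean cells held 24 to 46 AA467197 UMIs and 1 to 33 Ndufa4 UMIs, and the 10 highest obese cells 11 to 74 AA467197 UMIs and 1 to 26 Ndufa4 UMIs. The obese cell with 74 AA467197 UMIs, of cluster 3, had 4 Ndufa4 UMIs.

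At 2000 UMIs per cell the transcripts met less often than their separate shares give in the lean library. Both were seen in 124 lean cells, where the product of the shares gives 153.8. Ndufa4 was seen in 44.6% of lean cells with AA467197 (38.7 to 50.7) and 56.8% of those without (54.6 to 58.9), a log2 odds ratio of −0.71. Within cluster 3 the shares were 37.7% (upper bound 46.0) and 55.2% (50.6 to 59.8), and within cluster 1 they were 60.6% (upper bound 70.6) and 73.1% (68.4 to 77.5). The obese library showed no such gap over all cells, with 62.8% (51.1 to 73.5) and 60.8% (58.7 to 62.9). Its cluster 3, with 25 AA467197-positive cells, gave 56.0% (34.9 to 75.6) and 64.5% (58.6 to 70.0), intervals that overlap widely.

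These shares moved with the draw of UMIs, since few UMIs of either gene remain in a thinned cell. A 2nd draw gave a log2 odds ratio of −0.29 in lean cluster 3, where the 1st gave −1.03. The exact expectation over every possible draw, which rests on no seed, was −0.92 there, with Ndufa4 in 40.2% of AA467197-positive and 56.1% of negative cells. It was −0.90 in lean cluster 1, −0.60 in obese cluster 3 and −0.34 in obese cluster 1. In obese cluster 1 the direction depended on the draw: the 1st gave 0.31, with Ndufa4 in 79.4% of the 34 positive and 75.7% of the negative cells, the 2nd gave −0.29, and the draw at 5000 UMIs gave 0.94 where the expectation was −0.58. Over all obese cells it was 0.0005. At 5000 UMIs per cell the expected shares were 71.0% and 86.4% in lean cluster 3 and 86.1% and 92.3% in obese cluster 3. Without thinning, where cells with AA467197 were deeper than those without, the log2 odds ratio over all lean cells was 1.20.

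In both clusters of the lean library the level of Ndufa4 was lower at each step up in the number of AA467197 UMIs in the cell. At 5000 UMIs per cell, the expected Ndufa4 level in lean cluster 3 was 495 CPM in cells with no AA467197 UMI, 343 CPM with 1, 262 CPM with 2 or 3 and 198 CPM with 4 or more. The same series in lean cluster 1 was 705, 552, 447 and 318 CPM. In obese cluster 3 it was 576, 517, 468 and 300 CPM, the last over an expected 5.39 cells, and in obese cluster 1 it was 750, 695, 607 and 636 CPM, the last over 2.02 expected cells. Over the same bins of lean cluster 3, the summed level of the 10 other nuclear subunits of complex IV was 7421, 7632, 7915 and 8246 CPM. Ndufa4 therefore went from 6.66 to 2.40 UMIs for every 100 UMIs of those subunits.

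**Figure D2:**
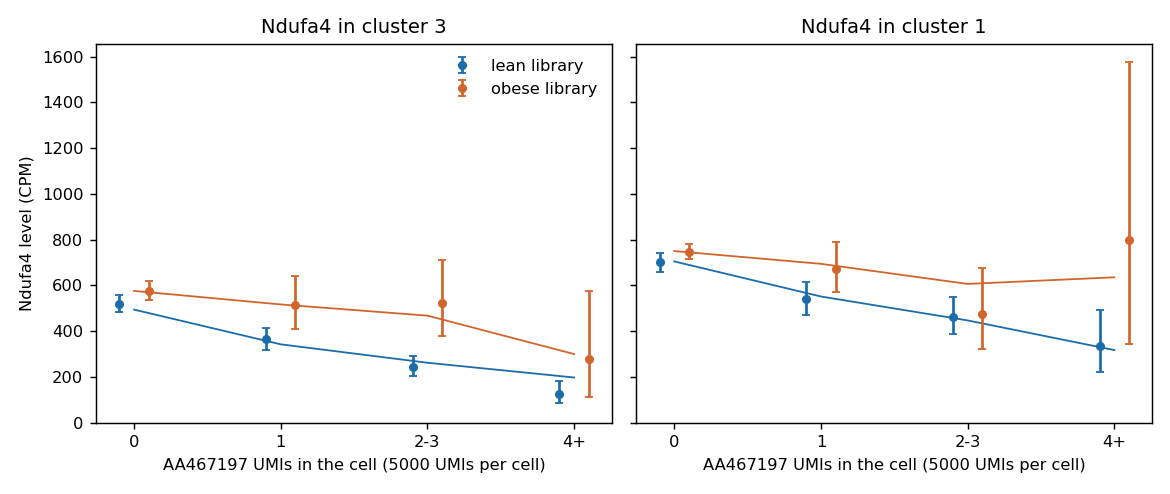
Ndufa4 level (CPM, vertical) by the number of AA467197 UMIs in the cell (horizontal) at 5000 UMIs per cell, in clusters 3 and 1 of the lean (blue) and obese (orange) library; lines are the exact expectation over all draws, points 1 draw, and bars its exact Poisson 95% intervals. The lean lines descend from 495 to 198 CPM and from 705 to 318 CPM, and the point drawn for 4 or more UMIs in lean cluster 3, 127 CPM, lies below its expectation.

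Compared as 2 sets of cells at 2000 UMIs, lean cluster 3 had 242 CPM of Ndufa4 in 151 AA467197-positive cells (189 to 304) and 433 CPM in 467 negative cells (391 to 477), a log2 ratio of −0.84 (−1.22 to −0.48), where 15.7% of genes were more than 1.5-fold lower in the positive cells. The 2nd draw gave −0.27, which is not past 1.5-fold, and the expectation over all draws was −0.72. Lean cluster 1 had 516 and 683 CPM, a log2 ratio of −0.40 (−0.73 to −0.09). At 5000 UMIs the ratios were −0.88 (−1.06 to −0.70) and −0.51 (−0.68 to −0.34), and their expectations −0.77 and −0.53. Of 6612 genes in lean cluster 3, 100 (1.51%) had a lower expected ratio than Ndufa4. In that expectation 3.22% of genes were more than 1.5-fold lower in the positive cells, Ndufa4 among them. In the single draw at 5000 UMIs the background was 8.9%.

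In the obese library the values were smaller. At 5000 UMIs the log2 ratio of Ndufa4 was −0.22 in cluster 3 (−0.50 to 0.05; 52 positive cells) and −0.23 in cluster 1 (−0.45 to −0.02; 61 positive cells), with expectations of −0.26 and −0.15. Of the 6765 genes in obese cluster 3, 23.8% had a lower expected ratio than Ndufa4. At 2000 UMIs the value of obese cluster 3 rested on 17 Ndufa4 UMIs in 25 cells and went from −0.72 (−1.52 to −0.02) in the 1st draw to 0.14 in the 2nd, so no direction is read from it.

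In lean cluster 3 the other subunits of complex IV did not show the ratio of Ndufa4. In lean cluster 3 at 5000 UMIs, 10 of 10 nuclear subunits of the list were measured, their median log2 ratio between AA467197-positive and negative cells was 0.08, and 0 of 10 passed 1.5-fold in either direction, beside 8.9% of 6998 genes lower and 6.72% higher. Their values ran from −0.01 for Cox7c to 0.23 for Cox5a. Cox4i1, a nuclear subunit that joins the complex early, had 705 and 658 CPM. The mitochondrially encoded subunits mt-Co1, mt-Co2 and mt-Co3, which form the catalytic core, had −0.20, −0.10 and −0.17. Of the 12 accessory subunits of complex I whose names begin with Ndufa, the median was −0.07 and 1, Ndufa9, was more than 1.5-fold lower, at −0.59. Of the 21 assembly factors of complex IV, 17 were measured with a median of 0.15, and 1 was lower and 2 were higher past 1.5-fold. Cox17, the copper chaperone of complex IV, was 907 and 786 CPM, a log2 ratio of 0.21 (0.09 to 0.32). In obese cluster 3 at 5000 UMIs, Ndufa4 at −0.22 lay level with mt-Co1 at −0.23. The 10 nuclear subunits had a median of 0.14 there.

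**Figure D3:**
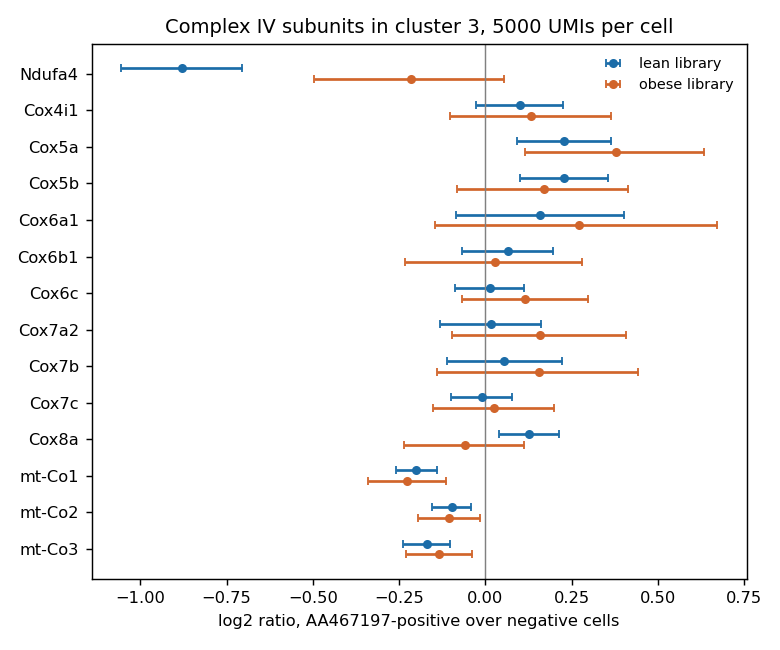
Log2 ratio of each gene between AA467197-positive and negative cells of cluster 3 at 5000 UMIs per cell (horizontal) for Ndufa4, the 10 nuclear and the 3 mitochondrially encoded subunits of complex IV (vertical), in the lean (blue) and obese (orange) library; bars are exact 95% intervals. Lean Ndufa4 sits at −0.88, apart from the lean subunits, which lie between −0.20 and 0.23. Obese Ndufa4 sits at −0.22, level with obese mt-Co1 at −0.23.

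The genes whose counts over cells were most like those of AA467197 included perforin, granzyme B and 3 glycolytic enzymes. Likeness was the lower of the Pearson r values of the 2 libraries at 2000 UMIs per cell, over 2330 lean and 2177 obese cells and 6597 genes. The cells of a library share its depth and its mixture of clusters. The 15 genes of highest likeness were Anxa2, Prf1, Lgals1, Actg1, Gapdh, Gzmb, Tnfrsf9, Plac8, Aldoa, Pgk1, Serpinb6a, Cox17, S100a4, Spp1 and Prelid1. Prf1 encodes perforin and Gzmb granzyme B, the pore former and a protease of cytotoxic granules, and Gapdh, Aldoa and Pgk1 are glycolytic enzymes. All r values were low, 0.25 and 0.18 for Anxa2, 0.27 and 0.18 for Prf1, and 0.34 and 0.14 for Gzmb in the lean and obese library. The 5 genes at the other end were Malat1, Rps27, Rps24, Klf2 and Rplp1, of which Klf2 is a transcription factor of resting T cells, with −0.21 and −0.10. Ndufa4 had an r of −0.09 with AA467197 in the lean and −0.004 in the obese library. Within cluster 3, its r was −0.18 in the lean library, where 2 of 6597 genes were lower, and −0.12 in the obese library, where 26 were lower. Both of these r values rest on 1 draw of UMIs and were not recomputed on the 2nd. Other values of Ndufa4 in cluster 3 moved with the draw, so no direction is read for the obese library. The 5 genes most like Ndufa4 itself were Ppia, Rbm3, Tmsb4x, Pfn1 and Snrpg, of which 1 remained among the 5 at 5000 UMIs and 1 within cluster 3. Of the genes most like AA467197, Prf1, Gzmb and Aldoa stayed among the 15 within cluster 3 alone, while Gapdh, Pgk1 and Cox17 did not.

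**Figure D4:**
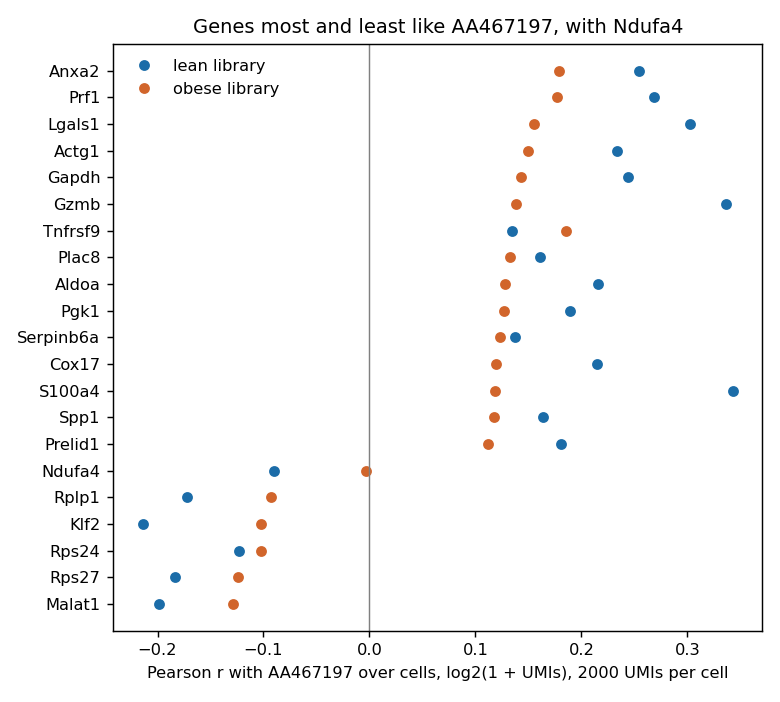
Pearson r with AA467197 over cells (horizontal; log2 of 1 + UMIs, 2000 UMIs per cell) for the 15 most like and 5 least like genes and Ndufa4 (vertical), in the lean (blue) and obese (orange) library. The r values are low for all of them, at most 0.34 for the lean and 0.18 for the obese library, and Ndufa4 lies at −0.09 and −0.004.

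Within cluster 3 the AA467197-positive cells held more Gzmb and Gzmf in both libraries, but less Gzma. At 5000 UMIs, Gzmb was 2477 CPM in lean positive and 1265 CPM in lean negative cells, a log2 ratio of 0.97 (0.89 to 1.05), and 1708 and 529 CPM in obese cells, a ratio of 1.69 (1.51 to 1.86). Gzmf, of the granzyme cluster next to Gzmb, was 754 and 162 CPM in lean cells and 215 and 10.1 CPM in obese cells. Prf1 was 735 and 418 CPM in lean cells and 565 and 187 CPM in obese cells. Gzma, which encodes granzyme A, was 50.5 and 84.4 CPM in lean cells, a ratio of −0.74 (−1.18 to −0.31), and had 0 UMIs in the 52 obese positive cells against 34.2 CPM in the negative ones. Of the 18 effector genes listed, 8 were higher and 3 lower past 1.5-fold in lean positive cells, beside 6.72% of all genes higher and 8.9% lower. In obese cells 16 of the 18 were measured, of which 7 were higher and 1 lower, beside 12.1% and 16.9%. These values rest on 1 draw and moved with the depth. At 2000 UMIs the lean ratio of Gzma was −5.07 (−10.4 to −2.56), with 1 UMI in the positive cells. Gzmg, the highest of the list in lean cells at 5000 UMIs with 6.24, was −1.05 (−2.77 to 0.32) at 2000 UMIs.

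Within cluster 3 the listed NF-kB target genes had medians of opposite sign in the libraries, which cluster 1 did not show. In lean cluster 3 their median log2 ratio between AA467197-positive and negative cells was −0.30, with 5 of 18 lower and 0 higher past 1.5-fold, beside 8.9% and 6.72% of all genes. Nfkbia, the feedback inhibitor of NF-kB, was 592 and 929 CPM, a ratio of −0.65 (−0.77 to −0.53). In obese cluster 3 the median was 0.17, with 1 of 18 lower and 5 higher, beside 16.9% and 12.1%. At 2000 UMIs the medians were −0.54 over 15 and 0.11 over 12 measured genes. In cluster 1 both libraries had the same sign, with medians of 0.06 (lean) and 0.30 (obese) at 5000 UMIs. At 2000 UMIs the cluster 1 medians were −0.21 and −0.07. Nfkbia in obese cluster 3 at 5000 UMIs was 1400 and 1423 CPM, a ratio of −0.02 (−0.19 to 0.14). Ccl1, a chemokine, was 65.3 and 310 CPM in lean positive and negative cells and 519 and 211 CPM in obese ones at 5000 UMIs. At 2000 UMIs the obese values of Ccl1 were in the other order, 160 CPM in 25 positive and 308 CPM in negative cells, with 8 UMIs in the positive cells, so no direction is read for the obese library. Tnfrsf9, the costimulatory receptor 4-1BB, was 279 and 300 CPM in lean cells, with an interval of the ratio that spans 0 (−0.30 to 0.09), and 588 and 322 CPM in obese cells, a ratio of 0.87 (0.59 to 1.14). The difference between the libraries was not tested.

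Nearly all cells with and without AA467197 held a CD8 T cell marker. Over all clusters together, the level of the CD8 T marker list was higher in those with it. That level was 7094 and 5443 CPM in lean positive and negative cells at 2000 UMIs, and 5865 and 5015 CPM in obese ones. Within cluster 3 the levels were closer, 8113 and 7734 CPM in lean and 6880 and 6702 CPM in obese cells. At 2000 UMIs, each of the 278 lean and 78 obese positive cells held a UMI of the CD8 T marker list, as did 99.8% and 99.7% of the negative cells. In the lean positive cells Cd79a, Cd79b, Ms4a1, Lyz2, Csf1r, Cd4, Foxp3, Ncr1, Pmel, Dct and Tyr, markers of B cells, macrophages, CD4 T cells, natural killer cells and melanoma, had 0 UMIs. In all, 2 of 9 myeloid, 4 of 5 B cell and 3 of 5 melanoma markers were at 0 there. The CD4 and natural killer lists were rare in lean negative cells too, seen in 0.585% and 0.877%. Myeloid markers as a list were at 39.6 CPM in lean positive and 53.4 CPM in negative cells. The dendritic list, with Siglech and Flt3 at 0 UMIs, was seen in 41.7% of lean positive and 23.7% of negative cells, and the melanoma list in 2 of 278 positive and 0.0487% of negative cells. In the obese library the myeloid list was at 89.7 CPM in positive and 60.7 CPM in negative cells and the dendritic list at 1301 and 236 CPM, seen in 29.5% and 16.3% of cells. Within cluster 3 of the obese library the dendritic list was at 240.0 and 274 CPM. Within cluster 3 of the lean library that list was seen in 36.4% of positive and 38.8% of negative cells, at 374 and 297 CPM. The lean cell with the most AA467197 UMIs and 1 of the 10 highest obese cells belonged to cluster 5. The part of these lists and cells in the results was not tested. Without clusters 4 and 5 the obese over lean log2 ratio of AA467197 was −1.98. With only CD8-expressing cells that held no UMI of Cd4, Cd79a, Lyz2 or Pmel, that ratio was −1.99. The filter used counts at full depth, while at 2000 UMIs its genes had 0 UMIs in the lean positive cells. None of its genes is on the dendritic list, so the filter cannot show what part cells with that list had. The part of other lineages was not tested beyond these 4 genes.

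Between the diets, AA467197 was 130 CPM in the lean library (3624 UMIs; 126 to 135) and 33.2 CPM in the obese library (954 UMIs; 31.2 to 35.4), 3.92-fold higher in lean, a log2 ratio of obese over lean of −1.97 (−2.08 to −1.87). Of 7064 genes, 1.32% were more than 1.5-fold lower in the obese library, and 6 had a lower ratio than AA467197. Those 6, Gzmg, Gzmf, Gzmd, Styk1, Serpinb9b and Myo10, are named because their values were seen to be lower. The ratio was −2.17 in cluster 1 (−2.32 to −2.02), where 1.78% of genes were that much lower, −1.28 in cluster 3 (−1.44 to −1.13), with 3.2%, and −2.31 in cluster 0 (−3.07 to −1.59), with 2.64%. In cluster 3 the 10 highest cells held 48.8% of the obese and 13.6% of the lean AA467197 UMIs. The obese level of cluster 3 therefore rests in large part on few cells, which raise it. Over all cells, the ratio without the 10 highest cells of each library was −2.24, against −1.97 with them. It was not recomputed without them in cluster 3. In cluster 2, with 8 and 13 UMIs, the interval of −0.32 to 2.53 allowed either direction. With the clusters weighted as in the lean library the obese level was 41.6 CPM, a ratio of −1.65. Among 13 finer clusters, 9 held at least 20 AA467197 UMIs, and of these 7 had an interval wholly below 0 and 0 had one above.

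Ndufa4 had the opposite direction, at a smaller size. It was 500.04 CPM in the lean (492 to 508) and 603 CPM in the obese library (594 to 612), a log2 ratio of 0.27 (0.24 to 0.30), while the median of all genes was 0.04. The ratio was 0.56 in cluster 3 (0.49 to 0.63) and 0.24 in cluster 1 (0.20 to 0.28), but −0.28 in cluster 2 (−0.38 to −0.18), and −0.08 in cluster 0 (−0.18 to 0.01). None of these passed 1.5-fold, while the shallow cluster 4 did at 0.78. In cluster 3 Ndufa4 stood 1.47-fold higher, where 6.07% of genes passed 1.5-fold, and it passed that fold at 0.69 in the matching cluster at resolution 0.8 and at 0.59 with mitochondrial and ribosomal protein genes left out of the total. In cluster 3, the Ndufa4 ratio between the libraries was larger among AA467197-positive cells, which held 283 CPM in lean and 496 CPM in obese at 5000 UMIs, a log2 ratio of 0.81 (0.51 to 1.10). Among AA467197-negative cells it was 520 and 577 CPM, a ratio of 0.15 (0.003 to 0.29). The expectations over all draws were 0.72 and 0.22, and in cluster 1 they were 0.46 and 0.09. The difference between positive and negative cells was not tested.

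Of the listed genes of complexes I and IV, the nuclear subunits had medians near 0 between the diets, and the 3 mitochondrially encoded ones differed among themselves. Over all cells the 10 nuclear subunits of complex IV had a median obese over lean log2 ratio of −0.04 with 0 past 1.5-fold, and the 12 Ndufa subunits of complex I had −0.03 with 0 past it, beside 1.32% of all genes lower and 1.66% higher past that fold. Of the 3 mitochondrially encoded subunits, with a median of 0.36, 1 passed 1.5-fold, mt-Co3 at 0.65, while mt-Co1 was at −0.10. Cox7a2l, which takes part in supercomplexes, was at 0.38. In cluster 3, NF-kB target genes had a median of 0.58. Of these, 9 of 18 were more than 1.5-fold higher and 0 lower, beside 6.07% and 3.2% of all genes. Effector genes had a median of −0.71 there, with 10 of 18 lower and 2 higher, and hypoxia response genes −0.48, with 4 of 12 measured lower. In clusters 1 and 0 the NF-kB medians were 0.19 and 0.10. The effector medians were −0.59 and −0.001 there, and the hypoxia medians −0.33 and 0.10.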

How the data were processed

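CD8+ T cells of 1 lean and 1 obese library were analysed. The authors made the deposited UMI counts per gene and cell; the submitters' processing notes name Cell Ranger 6.0.2 and mm10. A cell was used if its mitochondrial share was below 7.5% and its total lay above 500 and below 50000 UMIs, which left out 241 lean and 334 obese cells. Members and gene lists were chosen with earlier results of these data known. A gene's UMIs were summed over cells and set against the total of the same cells (CPM). Intervals are exact (Poisson for CPM, Clopper-Pearson for shares, conditional binomial for ratios), at 95%. A ratio counts as past 1.5-fold with no test; genes needed 10 CPM in 1 set of cells and 20 UMIs. Clusters came from Seurat 5.3.0 in R 4.3.3 (20 principal components, 20 neighbours, resolution 0.15, the lowest that gave 6). Doublets were not called.

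Each cell was thinned at random to 2000 or 5000 UMIs, which left out 126 lean and 112 obese cells at 2000. Because 1 draw moved the values of Ndufa4, the hypergeometric expectation over all draws was added after the data were seen. Named genes are the members and Ndufa4l2, list members, the 15 genes most and 5 least like AA467197, the 5 most like Ndufa4 and the 5 leading genes of each cluster; others were named after their values were seen, and some marker genes are not reported here. Positions are from GENCODE, in which 99.6% of 32285 identifiers were found, and promoters from RefSeq (GRCm38.p6). Python 3.11.15, numpy 2.4.6, scipy 1.17.1 and pandas 2.3.3 were used. Tested on simulated counts of 6898 genes for obese over lean over all cells, the intervals covered 93% of 200 changed genes. The simulated counts were Poisson draws, the model that the intervals assume. The test therefore checks the calculation only and cannot show the spread between cells or animals.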

Additional observations from a re-analysis of the deposited data

Results flagged for a closer look

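Ndufa4 differed between the libraries in opposite directions by cluster. Its obese over lean log2 ratio was 0.24 in cluster 1, 0.56 in cluster 3 and 0.78 in the shallow cluster 4, and −0.28 in cluster 2, with intervals of counting error that did not reach 0. The 10 nuclear subunits of complex IV had medians of 0.52 in cluster 4 and −0.15 in cluster 2, the direction of Ndufa4 there. Their medians were −0.05 in cluster 1 and −0.01 in cluster 3. The difference between clusters was not tested.

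AA467197 was also found in cells outside the limits on depth and mitochondrial share. The lean level there was 201 CPM (190 to 212), against 130 CPM within the limits, and 83 cells with 50000 UMIs or more, at 211 CPM, held 1213 of the 1223 UMIs. In the obese library AA467197 was 35.8 CPM outside and 33.2 CPM within the limits. Ndufa4 of the obese library was 694 CPM outside the limits (678 to 711) and 603 CPM within them.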

How the results depend on the processing

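With 1 library for each diet no library could be left out, and counting error is the only error given. No paired analysis was possible because each diet has 1 library. Of 127 values recomputed for 25 results, 87 stayed within the counting interval of the value reported (for the named genes, within 1.5 times its count), 37 moved outside it and 3 turned direction where the interval of the value reported did not reach 0. Of the other values, whose interval did reach 0, 7 changed sign, all for the relation of both genes in the obese library: the odds ratio over all cells (−0.18 at 5000 UMIs), in cluster 1 (−0.29 with the 2nd draw, −0.34 as the expectation and the value at 1000 UMIs given below) and in cluster 3 (0.11 at 1000 UMIs), and the Ndufa4 ratio in cluster 1 (0.33 for 2 or more UMIs and 0.10 for 4 or more at 5000).

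The log2 ratio of AA467197 over all cells became −2.08 with all deposited cells, −2.24 without the 10 highest cells and −1.73 at 2000 UMIs per cell; that of Ndufa4 became 0.23 with TMM scaling (edgeR 4.0.16), 0.19 as a mean over cells, 0.33 with all deposited cells, 0.17 at 2000 UMIs and 0.18 at 5000. In the cluster at resolution 0.8 that held most of the cells, AA467197 was −2.34 for cluster 1 and −1.01 for cluster 3, and Ndufa4 0.69 for cluster 3. At 2000 UMIs Ndufa4 was 0.13 in cluster 1.

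The percent of cells with a UMI rises with depth by construction. AA467197 was at 7.20% of lean and 1.85% of obese cells at 1000 UMIs, 25.2% and 7.40% at 5000, and 30.1% and 13.8% unthinned; Ndufa4 was at 35.0% and 39.4%, 85.4% and 90.3%, and 84.2% and 88.1%. With the 2nd draw obese Ndufa4 was at 63.1%.

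The log2 odds ratio over all cells was 1.20 in the lean library without thinning, which turns its direction, 3.28 in the obese library, and −1.43 in the lean library at 5000 UMIs. In lean cluster 3 it was −1.83 at 5000 UMIs and −0.29 with the 2nd draw, and in obese cluster 1 −0.99 at 1000 UMIs. The Ndufa4 ratio between AA467197-positive and negative cells became −0.76 in lean cluster 1 and −0.27 in lean cluster 3 with the 2nd draw, and −1.05 and −2.03 for 4 or more UMIs against 0 at 5000. With the complex IV median taken off it was −0.98 in lean cluster 1 for 2 or more UMIs and −0.43 in lean cluster 3 with the 2nd draw. In obese cluster 3 the 2nd draw turned it to 0.14, and to 0.18 with that median taken off. Of the 15 genes most like AA467197, 8 remained within cluster 3 alone and 13 at 5000 UMIs. Where no construction is named, the cause was not tested.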
